A study of Mus musculus with 7 samples.

Results

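The proteasome and immunoproteasome subunits are described here over 7 libraries of sorted mouse bone marrow progenitors. Members were the gene symbols made of Psm, a letter from a to g and a number, which gave 43 of the 23930 genes in the tables. The symbols Psmc3ip and Psme2b, which carry further letters, were kept apart. Of the 43 members, 42 passed the filter on low counts, and Psmb11 did not. Psma3, Psma5, Psmb5, Psme2 and Psmg3 were not analysed here.

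The pMT-10 mouse overexpresses interleukin-10 (IL-10) from a transgene whose metallothionein promoter responds to zinc, and C57BL/6 (BL/6) mice were the controls. All mice, BL/6 mice included, were given zinc with their drinking water for 15 days. The groups were haematopoietic stem cells (HSC) of pMT-10 mice (1 library), LSK CD150+CD48+ cells of pMT-10 mice (2 libraries), common myeloid progenitors (CMPs) of pMT-10 mice (2 libraries) and CMPs of BL/6 mice (2 libraries). LSK cells lack lineage markers and carry SCA-1 and c-KIT; neither the gates for HSC and CMPs nor the animals behind each library are stated in the labels. P-values therefore measure only the spread between these libraries, and how much of that spread is technical is not known. The kit reads 1 amplicon per gene, so levels are compared between libraries for the same gene, never between genes. The LSK CD150+CD48+ and pMT-10 CMP libraries came from one sequencing chip (chip 1) and the HSC and BL/6 CMP libraries from another (chip 2), so strain and chip coincide in the CMPs and cannot be told apart there.

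The proteasome is the protease that degrades ubiquitin-tagged proteins. Its barrel, the 20S core, stacks outer rings of alpha subunits on inner rings of beta subunits, and the 19S cap on its ends binds the ubiquitin chain and unfolds the protein with a ring of ATPases. Interferon-γ induces the beta subunits Psmb8, Psmb9 and Psmb10, which replace the standard catalytic subunits Psmb5, Psmb6 and Psmb7 in newly built cores. The resulting immunoproteasome, together with the PA28 activator made of the Psme1 and Psme2 products, changes which peptides are cut for presentation on MHC class I, and blood cells carry some immunoproteasome even at rest.

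Library totals ran from 7372430 to 13854314 counts. The members took 1.21% of the counts in the HSC library, 1.08 and 1.10% in LSK CD150+CD48+ libraries, 1.21 and 1.35% in pMT-10 CMPs and 1.01 and 1.04% in BL/6 CMPs. The stem cell gene Mecom had 47.6 CPM (counts scaled to a common library total) in the HSC library, against 2.31 to 4.09 CPM in the other libraries. The pMT-10 CMP replicates differed more from each other than the other pairs did (SD of the log2 difference over the 42 tested members 0.49, against 0.27 for LSK CD150+CD48+ cells and 0.18 for BL/6 CMPs). Of 8 T and NK cell genes 4 to 6 were at 0 in each library, Cd3d and Ncr1 in all 7, and their summed level was 5.95 CPM in HSC, 1.05 and 1.29 CPM in LSK CD150+CD48+ cells, 3.64 and 4.40 CPM in pMT-10 CMPs and 2.58 and 2.91 CPM in BL/6 CMPs. Of 5 dendritic cell genes Siglech, Xcr1 and Cd209a were at 0 in every library, and the summed level was 1.72 CPM in HSC, 9.81 and 12.9 CPM in LSK CD150+CD48+ cells, 29.1 and 32.7 CPM in pMT-10 CMPs and 31.7 and 36.7 CPM in BL/6 CMPs. Nearly all of the dendritic cell sum was Zbtb46 (28.2 and 32.0 CPM in pMT-10 CMPs, 30.7 and 34.6 CPM in BL/6 CMPs). Of the T and NK cell sum, Klrb1c gave 4.89 CPM in HSC, and Lck gave most in the other libraries. Single genes thus set these sums, which do not measure the share of either cell type. The Y-linked gene Ddx3y had 21.7 to 74.8 CPM in the pMT-10 libraries and 0 counts in both BL/6 libraries. Xist, the RNA that silences an X chromosome in female cells, had 127 CPM in HSC, 284 and 0.144 CPM in the first and second LSK CD150+CD48+ libraries, 1313 and 943 CPM in pMT-10 CMPs and 859 and 706 CPM in BL/6 CMPs. The pMT-10 CMP, HSC and first LSK CD150+CD48+ libraries thus held both transcripts, while the second LSK CD150+CD48+ library had 2 Xist counts and stood apart from its replicate, so counts of calls that rest on that population are also given with each of the pair left out. The Ddx3y difference coincides with strain in both comparisons with BL/6 CMPs, so donor sex and strain cannot be told apart there. Psmd10, a member, and the pathway genes Uba1 and Ubqln2 lie on the X chromosome. The part of donor sex in the results was not tested.

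Start regions are shown for Psmb8, Psmb9, Psmb10 and Psme1, the 4 members that rose in both comparisons with BL/6 CMPs, from RefSeq (GRCm38.p6, the mm10 assembly). Each window runs from 250 bases before to 50 after the gene's start. Psmb9 (chr17:34182030-34187330) and Psmb8 (chr17:34198195-34201454) lie on either side of the peptide transporter gene Tap1 (chr17:34187556-34197225). Psmb9 and Tap1 start 226 bases apart on opposite strands, so that their windows share 275 bases. Psmb10 lies at chr8:105935728-105938392, and Psme1 at chr14:55578494-55581527. Capitals mark a gamma activated site motif, TTCNNNGAA, in Psmb8, and an interferon response motif, GAAANNGAA, on the opposite strand in Psme1. The Psmb9 and Psmb10 windows hold neither.

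Psmb8 (chr17:34197945-34198244, plus strand): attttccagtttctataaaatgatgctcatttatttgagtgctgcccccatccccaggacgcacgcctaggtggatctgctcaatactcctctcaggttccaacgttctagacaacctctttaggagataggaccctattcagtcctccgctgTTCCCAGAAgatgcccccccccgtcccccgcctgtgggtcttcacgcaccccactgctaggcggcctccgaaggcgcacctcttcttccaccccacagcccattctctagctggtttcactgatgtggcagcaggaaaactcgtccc
Psmb9 (chr17:34187281-34187580, minus strand): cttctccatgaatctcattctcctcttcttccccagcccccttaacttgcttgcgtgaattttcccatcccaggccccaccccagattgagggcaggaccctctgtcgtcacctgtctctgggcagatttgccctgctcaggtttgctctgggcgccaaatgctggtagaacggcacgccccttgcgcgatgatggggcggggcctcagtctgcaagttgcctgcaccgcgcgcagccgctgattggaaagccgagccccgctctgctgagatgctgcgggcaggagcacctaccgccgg
Psmb10 (chr8:105938343-105938642, minus strand): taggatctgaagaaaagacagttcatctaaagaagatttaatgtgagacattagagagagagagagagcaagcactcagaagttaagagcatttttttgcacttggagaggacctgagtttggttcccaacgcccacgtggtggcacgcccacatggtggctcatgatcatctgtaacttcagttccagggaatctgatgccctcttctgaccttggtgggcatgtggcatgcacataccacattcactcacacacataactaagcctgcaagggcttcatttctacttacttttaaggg
Psme1 (chr14:55578244-55578543, plus strand): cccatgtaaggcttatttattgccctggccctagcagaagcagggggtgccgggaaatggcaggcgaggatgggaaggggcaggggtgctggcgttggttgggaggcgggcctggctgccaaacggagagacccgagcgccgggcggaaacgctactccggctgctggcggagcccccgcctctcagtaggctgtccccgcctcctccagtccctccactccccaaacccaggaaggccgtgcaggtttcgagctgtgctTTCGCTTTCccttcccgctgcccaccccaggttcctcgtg

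Windows were matched for 35 of the 43 members (37 windows), and both strands were searched. TTCNNNGAA, which reads the same on both strands, stood in 3 of the 37 windows (8.11%; Psmb8, Psmd2 and Psmg1), against 8.3% of all 32851 windows. GAAANNGAA stood in 7 of 37 (18.9%; Psmb3, Psmb4, Psmc2, Psmd4, Psmd9, Psme1 and Psmg4), against 8.56% of all. TGACNNNGC, core bases of the antioxidant response element, stood in 5 of 37 (13.5%; Psmb6, Psmc6, Psmd12, Psmd9 and Psme4), against 12.4% of all. A match describes letters in a window, not a bound site.

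The first comparison, pMT-10 CMPs against BL/6 CMPs, asks what differs in the proteasome genes of this progenitor when IL-10 is overexpressed. All 3 immunosubunits rose, and the PA28 gene Psme1 rose with them, while the standard partners Psmb6 and Psmb7 did not pass the test. Of the 42 tested members 11 rose (26.2%), against 14.3% of all 11429 tested genes, and 6 fell (14.3%), against 13.7% of all. The median log2 fold change was 0.20 over the members and 0.01 over all tested genes. Genes with an adjusted p under 0.05 in edgeR's quasi-likelihood test, with Benjamini-Hochberg adjustment over all tested genes, are called, and each adjusted p below is from this test.

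Psmb9, the immunosubunit that takes the place of Psmb6, had 179 and 302 CPM in pMT-10 CMPs, against 31.3 and 30.7 CPM in BL/6 CMPs. Both pMT-10 libraries were far above both BL/6 libraries, and the log2 fold change was 2.95 ± 0.26 (± SE, adjusted p = 0.000507). Psmb10, which takes the place of Psmb7, had 284 and 444 CPM in pMT-10 CMPs, against 48.5 and 60.1 CPM in BL/6 CMPs. The groups did not overlap, and the log2 fold change was 2.74 ± 0.25 (adjusted p = 0.00059). Psmb8, which takes the place of Psmb5, had 717 and 1303 CPM in pMT-10 CMPs, against 306 and 307 CPM in BL/6 CMPs. Its groups did not overlap either, with a log2 fold change of 1.72 ± 0.27 (adjusted p = 0.00314). All 3 were higher in the second pMT-10 CMP library than in the first. In such bulk libraries a change in the share of cells that express a gene and a change in RNA per cell cannot be told apart. Together the immunosubunits took 9.84 and 15.5% of the members' counts in pMT-10 CMPs, against 3.80 and 3.76% in BL/6 CMPs.

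Psmb6, a standard catalytic subunit, had 248 and 148 CPM in pMT-10 CMPs, against 141 and 143 CPM in BL/6 CMPs (log2 fold change 0.48 ± 0.28, adjusted p = 0.226). Psmb7, also a standard catalytic subunit, had 396 and 427 CPM in pMT-10 CMPs, against 428 and 509 CPM in BL/6 CMPs (-0.19 ± 0.18, adjusted p = 0.469). Ratios within a library set each immunosubunit against its partner without any scaling between libraries. The log2 ratio of Psmb9 to Psmb6 was -0.47 and 1.03 in pMT-10 CMPs, against -2.17 and -2.22 in BL/6 CMPs, a difference of 2.47. The log2 ratio of Psmb10 to Psmb7 was -0.48 and 0.05 in pMT-10 CMPs, against -3.14 and -3.08 in BL/6 CMPs, a difference of 2.90. Both ratios were higher in every pMT-10 library than in either BL/6 library. In the HSC library they were 0.19 for Psmb9 to Psmb6 and -0.55 for Psmb10 to Psmb7, while the LSK CD150+CD48+ libraries had 0.65 and 0.13 for Psmb9 to Psmb6 and -0.52 each for Psmb10 to Psmb7. No p is given for the ratios, since 2 libraries against 2 cannot go below 0.333 in an exact permutation test.

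**Figure D1:**
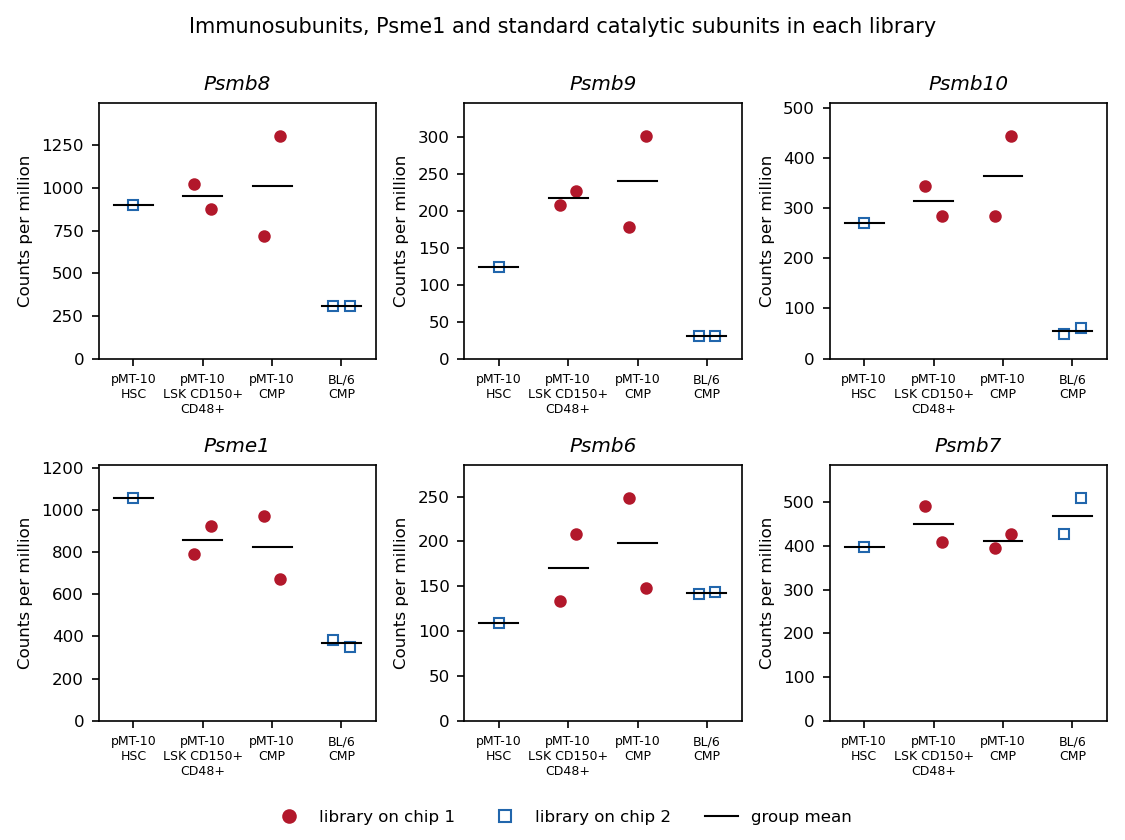
CPM (vertical axes, from 0) of the 3 immunosubunits, Psme1 and the standard subunits Psmb6 and Psmb7 in each library, by group; horizontal lines are group means, filled circles are chip 1 libraries and open squares chip 2 libraries. For Psmb8, Psmb9, Psmb10 and Psme1 all 5 pMT-10 libraries, the HSC library on chip 2 among them, lie above both BL/6 CMP libraries.

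Among the activators, Psme1 had 972 and 671 CPM in pMT-10 CMPs, against 383 and 351 CPM in BL/6 CMPs (log2 fold change 1.16 ± 0.21, adjusted p = 0.00552). Unlike the immunosubunits, it was higher in the first pMT-10 CMP library, and its call was lost without BL/6 CMP replicate 1 (adjusted p = 0.0581) or replicate 2 (adjusted p = 0.0651). Psme3, the nuclear PA28 gamma subunit, had 842 and 638 CPM in pMT-10 CMPs, against 1079.7 and 1179 CPM in BL/6 CMPs (-0.61 ± 0.20, adjusted p = 0.0454). It fell, but was called in only 4 of 16 alternative settings. Psme4, which encodes the PA200 activator, had 78.1 and 95.9 CPM in pMT-10 CMPs, against 75.1 and 82.1 CPM in BL/6 CMPs (0.15 ± 0.19, adjusted p = 0.59). Psmf1, the PI31 regulator, had 159 and 122 CPM in pMT-10 CMPs, against 115 and 144 CPM in BL/6 CMPs (0.12 ± 0.21, adjusted p = 0.704). Neither Psme4 nor Psmf1 passed the test. Psme2b, a retrocopy of Psme2 whose reads may be shared with its parent, had 29.1 and 47.4 CPM in pMT-10 CMPs, against 44.3 and 36.7 CPM in BL/6 CMPs, with overlapping groups.

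The standard core and cap genes moved in both directions. Of 28 tested, 6 rose and 2 fell, where 14.3% of all tested genes rose and 13.7% fell, and the median log2 fold change was 0.26, against 0.01 over all tested genes. In the alpha ring Psma1 (0.93 ± 0.23, adjusted p = 0.0161) and Psma7 (0.78 ± 0.22, adjusted p = 0.029) rose, and Psma2, Psma4 and Psma6 were not called. In the standard beta ring Psmb1, a structural subunit, had 344 and 276 CPM in pMT-10 CMPs, against 589.9 and 510.4 CPM in BL/6 CMPs, and fell (-0.83 ± 0.19, adjusted p = 0.0141). The other 5 beta subunits tested were not called. Of the 6 ATPases of the cap, Psmc3, Psmc1 and Psmc4 rose, and Psmc5, named after its value was seen, fell (-0.64 ± 0.20, adjusted p = 0.0397). Psmc3 had 391 and 524 CPM in pMT-10 CMPs, against 172 and 201 CPM in BL/6 CMPs (1.29 ± 0.20, adjusted p = 0.00319), and Psmc1 and Psmc4 were at 0.79 ± 0.24 and 0.69 ± 0.17. Of the 11 non-ATPase subunits Psmd8 rose (0.60 ± 0.19, adjusted p = 0.0402) and 10 were not called.

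Of 6 assembly factors, chaperones that build the particle and then leave it, 3 fell, against 13.7% of all tested genes, and 1 rose, against 14.3% of all. Psmg2, which works with Psmg1 to start the alpha ring, had 34.7 and 38.9 CPM in pMT-10 CMPs, against 134 and 115 CPM in BL/6 CMPs (-1.76 ± 0.27, adjusted p = 0.003). Psmd5, a chaperone of the cap's ATPase ring, had 148 and 136 CPM in pMT-10 CMPs, against 387 and 346 CPM in BL/6 CMPs (-1.36 ± 0.18, adjusted p = 0.00184). In both genes the groups were far apart. Psmd10, or gankyrin, a chaperone of the same ring, had 65.0 and 41.6 CPM in pMT-10 CMPs, against 91.9 and 107 CPM in BL/6 CMPs (-0.90 ± 0.24, adjusted p = 0.0216). Psmd9, a further chaperone of this ring that is named after its value was seen, rose (0.57 ± 0.17, adjusted p = 0.0334). Psmg1 had 14.2 and 28.5 CPM in pMT-10 CMPs, against 36.2 and 31.9 CPM in BL/6 CMPs, without passing the test (-0.67 ± 0.31, adjusted p = 0.137). Together the assembly factors took 3.83 and 3.44% of the members' counts in pMT-10 CMPs, against 7.83 and 7.06% in BL/6 CMPs.

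The tissue-specific core subunits had few counts. Psma8, of the testis proteasome, had 3.64 and 3.36 CPM in pMT-10 CMPs, against 4.43 and 3.39 CPM in BL/6 CMPs. Psmb11, of the thymus proteasome, had 0 and 8 counts in pMT-10 CMPs, against 0 and 1 in BL/6 CMPs, with 0 counts in HSC and 0 and 3 in LSK CD150+CD48+ cells.

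Psmb8, Psmb9, Psmb10 and Psmd5 were called in all 16 alternative settings of this comparison. The count of 17 called members was 5 without BL/6 CMP replicate 1, 6 without BL/6 CMP replicate 2 and 10 without either LSK CD150+CD48+ replicate, which enters through the shared estimate of spread. The LSK CD150+CD48+ minus HSC difference also lies between the chips, but it is one of population too and rests on 1 HSC library. When it was subtracted, 8 were called, Psmg2 was at -0.72 (adjusted p = 0.252) and Psmb1 turned to 0.19 (adjusted p = 0.697). Chip and population cannot be told apart in these values.

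**Figure D2:**
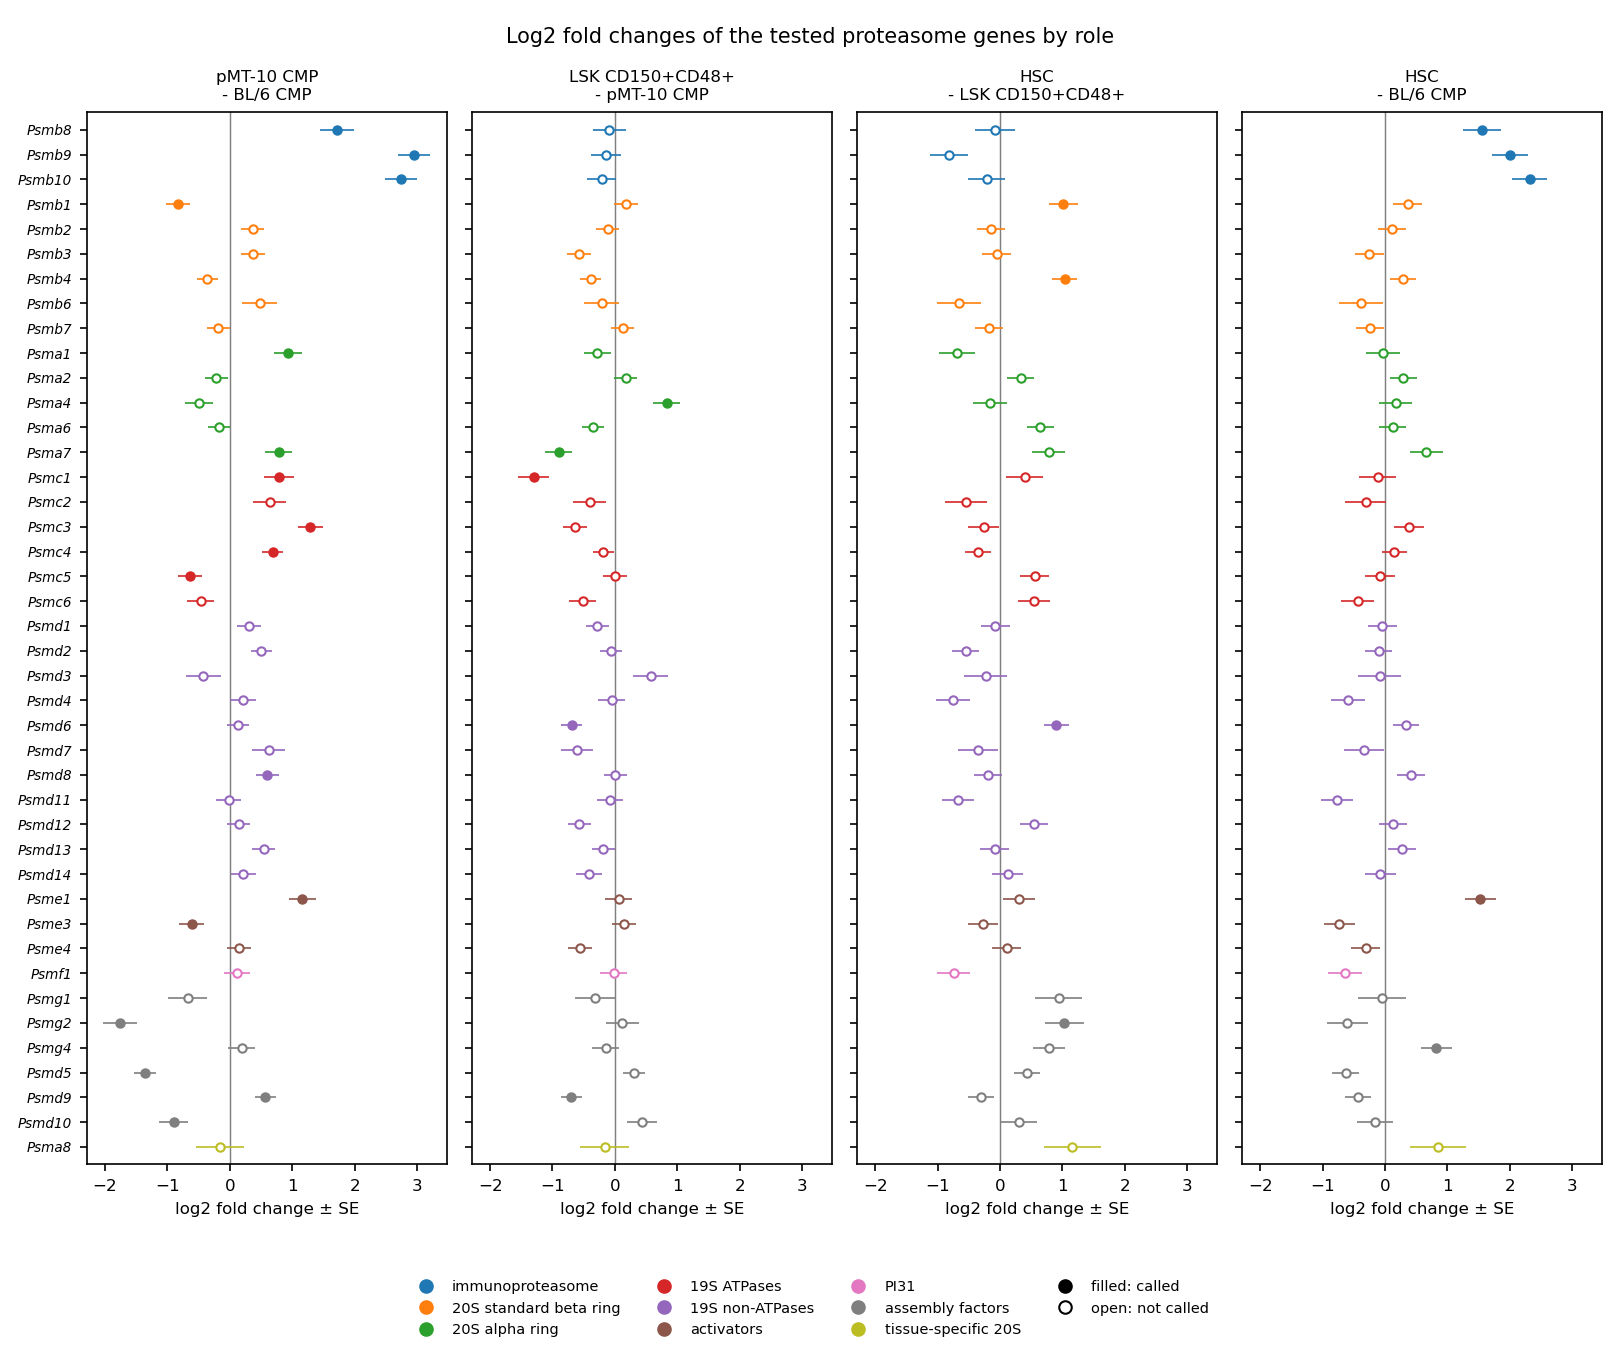
Log2 fold change ± SE of the 42 tested members, by role, in the 4 comparisons; filled points are called at an adjusted p under 0.05. The immunosubunits stand between 1.56 and 2.95 in both comparisons with BL/6 CMPs, and none of them was called between pMT-10 groups.

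HSC of pMT-10 mice and BL/6 CMPs came from the same chip but differ in strain, cell population and Ddx3y level. The HSC group is 1 library whose spread is taken from the other groups, and the BL/6 libraries are those of the comparison above. The 3 immunosubunits and Psme1 rose here too. Psmb10 had 271 CPM in HSC, against 48.5 and 60.1 CPM in BL/6 CMPs (2.32 ± 0.28, adjusted p = 0.000739). Psmb9 had 124 CPM in HSC, against 31.3 and 30.7 CPM in BL/6 CMPs (2.0 ± 0.29, adjusted p = 0.00171). Psmb8 had 902 CPM in HSC, against 306 and 307 CPM in BL/6 CMPs (1.56 ± 0.31, adjusted p = 0.00796). In all 3 genes the HSC value lay well above both BL/6 values. Psme1 was highest in HSC of all 7 libraries, with 1054 CPM, against 383 and 351 CPM in BL/6 CMPs (1.52 ± 0.25, adjusted p = 0.00322).

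In this comparison 5 of 42 members rose (11.9%), against 11.8% of all tested genes, and 0 fell by edgeR, against 8.5% of all. The fifth was Psmg4, a chaperone of the alpha ring, with 77.1 CPM in HSC, against 47.1 and 40.1 CPM in BL/6 CMPs (0.82 ± 0.26, adjusted p = 0.0494). At an unadjusted p under 0.05, 4 members were lower, while DESeq2 called 2 lower and limma-voom 0. Of the 28 standard core and cap genes edgeR called 0, with 1 higher and 1 lower at an unadjusted p under 0.05, DESeq2 called 1 lower and limma-voom 0. Psmc3 was at 0.39 ± 0.24 here, Psmc1 at -0.12 ± 0.30 and Psmb1 at 0.37 ± 0.23. Psmd5 (-0.63 ± 0.22, adjusted p = 0.0697) and Psme3 (-0.73 ± 0.25, adjusted p = 0.0659) were below both BL/6 libraries in HSC without passing the test. The count of 5 was 3 without either BL/6 CMP replicate and 12 without either pMT-10 CMP replicate, and the call of Psmb8 was lost without BL/6 CMP replicate 1 (adjusted p = 0.0554) or replicate 2 (adjusted p = 0.0604).

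Within pMT-10 mice and chip 1, the LSK CD150+CD48+ population was set against the CMPs. No immunosubunit passed the test in edgeR, DESeq2 or limma-voom, and 0 of the 3 had an unadjusted p under 0.05. Psmb8 had 1025 and 877 CPM in LSK CD150+CD48+ cells, against 717 and 1303 CPM in pMT-10 CMPs (log2 fold change -0.09 ± 0.26, adjusted p = 0.851). Psmb9 had 209 and 227 CPM in LSK CD150+CD48+ cells, against 179 and 302 CPM in pMT-10 CMPs (-0.14 ± 0.24, adjusted p = 0.728). Psmb10 had 344 and 285 CPM in LSK CD150+CD48+ cells, against 284 and 444 CPM in pMT-10 CMPs (-0.21 ± 0.24, adjusted p = 0.58). In each gene the LSK CD150+CD48+ values fell inside the wide range of the CMP pair. Without pMT-10 CMP replicate 1 all 3 were called lower (Psmb8 -0.46, Psmb9 -0.47 and Psmb10 -0.50), and without replicate 2 all 3 had positive values (0.41, 0.28 and 0.14) that were not called. Psme1 had 791 and 921 CPM in LSK CD150+CD48+ cells, against 972 and 671 CPM in pMT-10 CMPs (0.06 ± 0.21, adjusted p = 0.878).

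In that population 1 of the 42 members rose (2.38%) and 4 fell (9.52%), against 5.92% of all tested genes in each direction. The median log2 fold change was -0.17 over the members and -0.01 over all genes. Psmc1, an ATPase of the cap, had 134 and 96.5 CPM in LSK CD150+CD48+ cells, against 224 and 343 CPM in pMT-10 CMPs (-1.30 ± 0.25, adjusted p = 0.0128). Psma7, of the alpha ring, had 486 and 484 CPM in LSK CD150+CD48+ cells, against 705 and 1108 CPM in pMT-10 CMPs (-0.90 ± 0.22, adjusted p = 0.0329). Psmd9 (-0.70 ± 0.17, adjusted p = 0.0307) and Psmd6, a non-ATPase subunit of the cap (-0.69 ± 0.17, adjusted p = 0.0341), also fell. Psma4, of the alpha ring, rose, with 254 and 248 CPM in LSK CD150+CD48+ cells, against 172 and 110.2 CPM in pMT-10 CMPs (0.83 ± 0.22, adjusted p = 0.0414). The count of 5 called members was 0 without either LSK CD150+CD48+ replicate, 1 without either BL/6 CMP replicate and 21 without pMT-10 CMP replicate 1.

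HSC and LSK CD150+CD48+ cells of pMT-10 mice differ in both population and chip, which cannot be told apart here. Of the 42 members 4 rose in HSC (9.52%), against 10.6% of all tested genes, and 0 fell by edgeR, against 8.14% of all. At an unadjusted p under 0.05, 6 members were lower, and DESeq2 and limma-voom called 0 lower. Psmb4, of the beta ring, had 462 CPM in HSC, against 227 and 224 CPM in LSK CD150+CD48+ cells (1.03 ± 0.20, adjusted p = 0.01). Psmb1 had 709.8 CPM in HSC, against 319 and 384 CPM in LSK CD150+CD48+ cells (1.01 ± 0.23, adjusted p = 0.0176). Psmd6 (0.90 ± 0.20, adjusted p = 0.0177) and Psmg2 (1.03 ± 0.31, adjusted p = 0.0482) also rose. Psmb9 had 124 CPM in HSC, against 209 and 227 CPM in LSK CD150+CD48+ cells (log2 fold change -0.81 ± 0.31, adjusted p = 0.0926), while Psmb8 and Psmb10 were at -0.08 ± 0.32 and -0.21 ± 0.29. Psmf1 had 82.6 CPM in HSC, against 151 and 125 CPM in LSK CD150+CD48+ cells (-0.74 ± 0.27, adjusted p = 0.0837). The count of 4 was 0 without LSK CD150+CD48+ replicate 1, 1 without LSK CD150+CD48+ replicate 2 or without either BL/6 CMP replicate, and 21 without either pMT-10 CMP replicate.

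Laid out by chip, a description added after the values were seen and given without a test, 9 of the 42 tested members were higher in all 4 chip 1 libraries than in all 3 chip 2 libraries (21.4%), against 10.2% of all tested genes. They were Psma1, Psmb2, Psmb9, Psmb10, Psmc2, Psmc3, Psmc4, Psmd2 and Psmd13. A further 8 were lower in all 4 chip 1 libraries (19.05%), against 11.5% of all, namely Psma6, Psmb1, Psmb4, Psmc5, Psmd5, Psmd10, Psmg1 and Psmg2. Psmb1 had 276 to 384 CPM on chip 1 and 510.4 to 709.8 CPM on chip 2, and Psmg2 had 29.0 to 50.8 CPM on chip 1 and 82.0 to 134 CPM on chip 2.

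Split by strain, 9 members were higher in all 5 pMT-10 libraries than in both BL/6 libraries (21.4%), against 14.2% of all tested genes. They were Psmb2, Psmb8, Psmb9, Psmb10, Psmc3, Psmc4, Psmd8, Psmd13 and Psme1. Another 6 were lower in all 5 (14.3%), against 15.5% of all, namely Psmc5, Psmc6, Psmd5, Psmd10, Psme3 and Psmg2. Many members separate the libraries both ways. Psmb2, Psmb9, Psmb10, Psmc3, Psmc4 and Psmd13 stand in both higher lists, and Psmc5, Psmd5, Psmd10 and Psmg2 in both lower lists. For Psmb9 and Psmb10 the HSC library, at 124 and 271 CPM, lay below every chip 1 library and above both BL/6 libraries. Psmb8, Psmd8 and Psme1, among the higher members, and Psmc6 and Psme3, among the lower, separate the libraries by strain but not by chip.

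**Figure D3:**
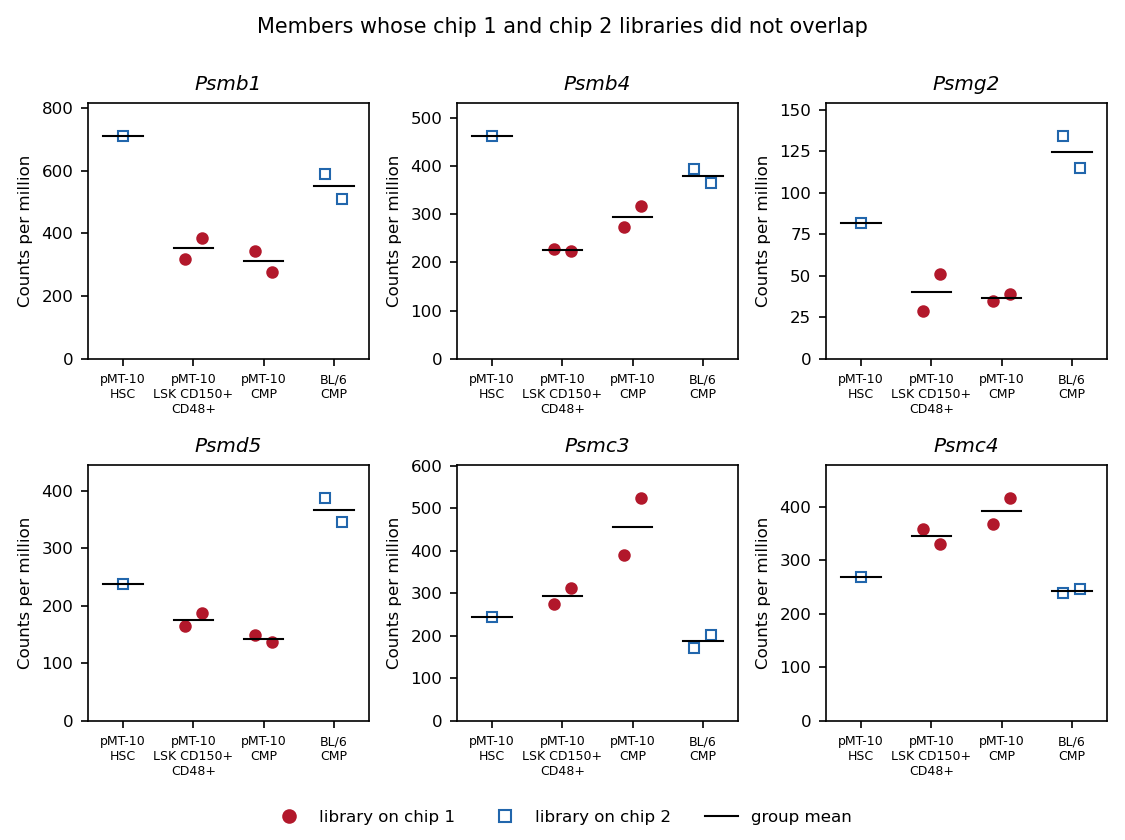
CPM (vertical axes, from 0) of 6 members in each library, by group; horizontal lines are group means, filled circles are chip 1 libraries and open squares chip 2 libraries. Psmb1, Psmb4, Psmg2 and Psmd5 are higher in all chip 2 libraries, and Psmc3 and Psmc4 are higher in all chip 1 libraries. Against both BL/6 libraries, Psmg2 and Psmd5 are also lower in all pMT-10 libraries, and Psmc3 and Psmc4 higher.

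Other genes of the pathway were taken from lists chosen with earlier results of these data known, so their counts are descriptions. Of 10 tested genes of peptide supply to MHC class I and its regulators, 6 rose in pMT-10 CMPs against BL/6 CMPs, where 14.3% of all tested genes rose, and 0 fell by edgeR, DESeq2, limma-voom or at an unadjusted p under 0.05, where edgeR called 13.7% of all lower. Their median log2 fold change was 0.93, against 0.01 over all tested genes. Irf1, an interferon-induced transcription factor, had 419.8 and 331 CPM in pMT-10 CMPs, against 63.2 and 76.1 CPM in BL/6 CMPs (2.43 ± 0.20, adjusted p = 0.000403). Tap1, a chain of the peptide transporter, had 476 and 499 CPM in pMT-10 CMPs, against 138 and 172 CPM in BL/6 CMPs (1.65 ± 0.19, adjusted p = 0.00136). Nlrc5, the transactivator of class I genes, rose by 1.64 ± 0.24 on the log2 scale (adjusted p = 0.00262). In HSC against BL/6 CMPs 5 of the 10 rose, against 11.8% of all tested genes, and 0 fell by any of these counts, against 8.5% of all by edgeR, with Irf1 at 3.17 ± 0.23, Nlrc5 at 1.87 ± 0.28 and Tap1 at 1.52 ± 0.22. In LSK CD150+CD48+ cells against pMT-10 CMPs Tapbp, the tapasin gene (1.01 ± 0.18), and Irf1 (0.73 ± 0.19) rose, and Irf8, a transcription factor of myeloid cells, fell (-0.79 ± 0.21). In HSC against LSK CD150+CD48+ cells Irf8 rose (1.03 ± 0.25) and Tapbp fell (-1.63 ± 0.23).

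Of 10 tested ubiquitin receptors, deubiquitinases and shuttles, which bring tagged proteins to the cap, 2 rose and 2 fell in pMT-10 CMPs against BL/6 CMPs, near the shares of all tested genes (14.3% higher and 13.7% lower), and their median log2 fold change was -0.53, against 0.01 over all. The shuttle Ubqln2 had 3.20 and 4.63 CPM in pMT-10 CMPs, against 19.6 and 14.8 CPM in BL/6 CMPs (-2.13 ± 0.33, adjusted p = 0.003). Its relative Ubqln1 had 10.5 and 7.65 CPM in pMT-10 CMPs, against 36.5 and 36.7 CPM in BL/6 CMPs (-2.01 ± 0.26, adjusted p = 0.00184). Txnl1, a thioredoxin-like protein bound to the cap, rose (1.12 ± 0.20). Shfm1, a small subunit of the cap named after its values were seen, also rose (1.08 ± 0.24). In HSC against BL/6 CMPs Ubqln1 fell (-1.40 ± 0.32), and Ubqln2 was at 0.11 ± 0.36. In LSK CD150+CD48+ cells against pMT-10 CMPs Ubqln2 (1.44 ± 0.33) and Ubqln1 (1.10 ± 0.26) rose, and Txnl1 fell (-1.26 ± 0.20). In HSC against LSK CD150+CD48+ cells 0 of the 10 were called by edgeR, DESeq2 or limma-voom, with 1 lower at an unadjusted p under 0.05. Of all tested genes edgeR called 10.6% higher and 8.14% lower there.

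Of 3 tested E1 genes, which activate ubiquitin and its relatives, Uba7, the E1 of the interferon-induced modifier ISG15, had 308 and 222 CPM in pMT-10 CMPs, against 47.2 and 50.7 CPM in BL/6 CMPs (2.44 ± 0.22, adjusted p = 0.000545). It was highest in HSC, at 539.6 CPM (3.46 ± 0.25 against BL/6 CMPs). Uba6, which also activates the ubiquitin-like FAT10, had 14.2 and 9.50 CPM in pMT-10 CMPs, against 55.8 and 50.5 CPM in BL/6 CMPs (-2.16 ± 0.26, adjusted p = 0.00157). It rose in LSK CD150+CD48+ cells against pMT-10 CMPs (1.43 ± 0.26) and was at -0.29 ± 0.30 in HSC against BL/6 CMPs. Uba1, the main ubiquitin E1, was at 0.25 ± 0.20 in pMT-10 CMPs against BL/6 CMPs and was not called in any of the 4 comparisons.

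Nfe2l1, the transcription factor that raises proteasome genes together when proteasome activity falls, had 169.9 and 190.5 CPM in pMT-10 CMPs, against 192 and 177 CPM in BL/6 CMPs (-0.03 ± 0.17, adjusted p = 0.904). Of the 9 tested genes of its pathway 0 were called in pMT-10 CMPs against BL/6 CMPs, and 0 for LSK CD150+CD48+ cells against pMT-10 CMPs, by edgeR, DESeq2 or limma-voom, with 1 higher at an unadjusted p under 0.05 in each comparison. Of all tested genes edgeR called 14.3% higher and 13.7% lower in the first of these comparisons, and 5.92% in each direction in the second. In HSC against BL/6 CMPs Maff, a small Maf partner, rose (3.15 ± 0.58), and Nfe2l2 (-1.69 ± 0.35) and Mafk (-1.03 ± 0.28) fell. In HSC against LSK CD150+CD48+ cells Nfe2l2 fell (-2.11 ± 0.35). Of 3 tested assembly and adaptor genes outside the Psm names, AI314180, a proteasome adaptor also called Ecpas, fell in pMT-10 CMPs against BL/6 CMPs (-0.91 ± 0.26), Txnl1, also in this list, rose, and Akirin2, a nuclear import factor of proteasomes, was at -0.05 ± 0.18.

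**Figure D4:**
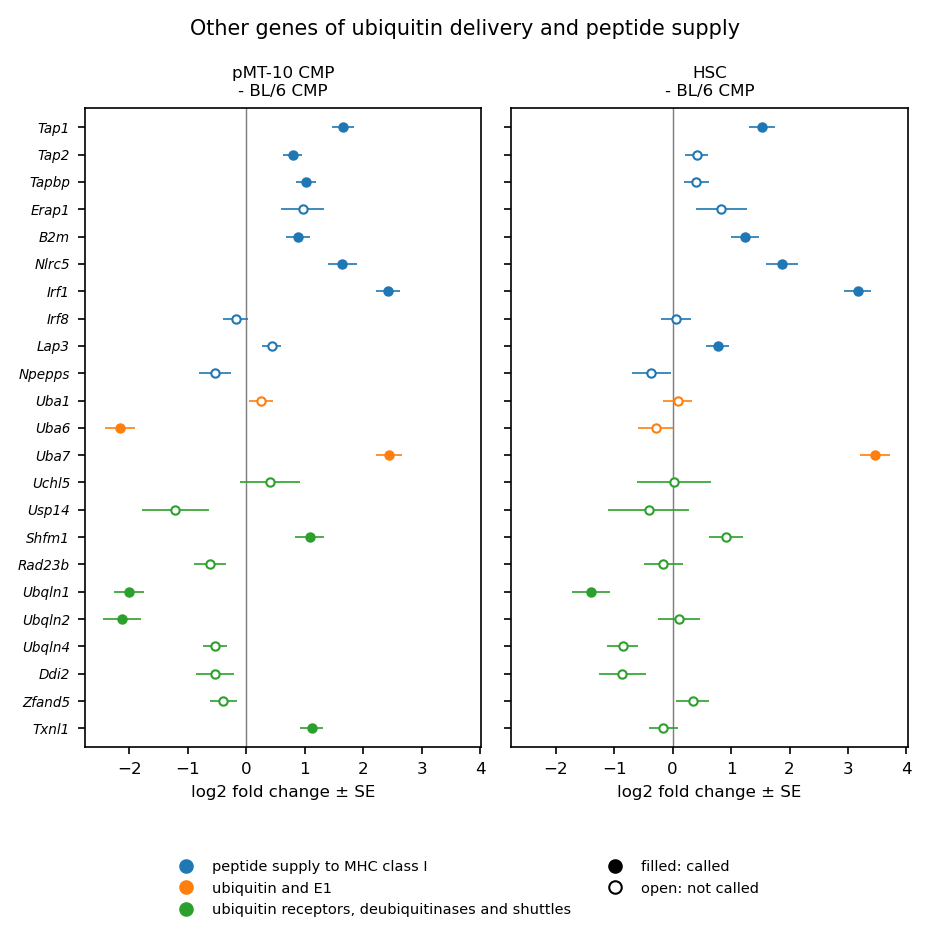
Log2 fold change ± SE of genes of peptide supply, ubiquitin activation and ubiquitin delivery, for pMT-10 CMPs minus BL/6 CMPs (left) and HSC minus BL/6 CMPs (right); filled points are called at an adjusted p under 0.05. Irf1, Nlrc5, Tap1 and Uba7 are called higher in both panels, and Ubqln1 is called lower in both.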

How the data were processed

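The 2 tables of raw read counts per gene, 1 amplicon each, were used as deposited by the authors, with 1 column per library; per the labels' protocols RNA was made into libraries with the Ion AmpliSeq mouse transcriptome kit, and mm10 is the genome build named in the submitters' processing notes. An aligner or counter is not given in the sources used. Genes were filtered with filterByExpr (minimum count 10), scaled by TMM and tested with edgeR 4.0.16 (glmQLFit, robust, and glmQLFTest; R 4.3.3) in 1 fit of all 7 libraries, with 3 residual degrees of freedom, and Benjamini-Hochberg adjustment. SE is the absolute log2 fold change over the square root of F, and CPM uses TMM-scaled totals. Log2 ratios add 0.5 counts. The procedure was tested on simulated data. For pMT-10 CMPs against BL/6 CMPs (11007 genes) it recovered 80 of 100 genes changed by 2 on the log2 scale and 28 of 100 changed by 1, with 8.47% of calls false; for HSC against BL/6 CMPs (11000 genes) 68 and 12, with 11.1% false; for LSK CD150+CD48+ cells against pMT-10 CMPs (10990 genes) 75 and 20, with 6.86% false; and for HSC against LSK CD150+CD48+ cells (11023 genes) 67 and 17, with 6.67% false. These simulated shares were above the threshold of 5%. Each simulation was 1 draw with 100 genes changed at each size. In the data far more genes were called, with 1638 higher and 1566 lower in pMT-10 CMPs against BL/6 CMPs. The simulated shares are therefore not rates for these data. Calls near the threshold remain uncertain. They include Psme3 in pMT-10 CMPs against BL/6 CMPs, Psmg2 in HSC against LSK CD150+CD48+ cells and Psmg4 in HSC against BL/6 CMPs. Alternatives were RLE or no scaling, DESeq2 1.42.0, limma-voom (limma 3.58.1), other filters and fewer libraries. A replicate block and subtraction of the LSK CD150+CD48+ minus HSC difference were further alternatives. Members and lists were chosen with earlier results of these data known. Named members were the immunosubunits, their partners, activators, Psmf1 and up to 3 called genes with the largest change per role and comparison. Planned results on Psmb5 and Psme2 were not analysed here. Some genes of the pathway lists are not reported here and are not in their counts.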

Additional observations from a re-analysis of the deposited data

How the results depend on the processing

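In pMT-10 CMPs against BL/6 CMPs the 17 called members were 10 with only the groups compared and 8 with the LSK CD150+CD48+ minus HSC difference subtracted, and 5 to 22 with 1 library left out. In LSK CD150+CD48+ cells against pMT-10 CMPs the 5 called were 8 with no filter on low counts, 1 with only the groups compared and 0 to 21 with 1 library left out. In HSC against LSK CD150+CD48+ cells the 4 called were 10 with no filter, 16 with only the groups compared and 0 to 21 with 1 library left out. In HSC against BL/6 CMPs the 5 called were 23 with only the groups compared and 3 to 12 with 1 library left out. The counts over all tested genes moved too. With only the groups compared, edgeR called 2274 genes in pMT-10 CMPs against BL/6 CMPs, against 1638 higher and 1566 lower in the main fit. For LSK CD150+CD48+ cells against pMT-10 CMPs it called 595, against 677 in each direction, and 2237 with no filter. In both HSC comparisons it called more genes than the main fit. Leaving 1 library out also moved these counts in each comparison. The cause was not tested. The other scalings, tests and the minimum count of 50 kept all 4 counts within 1.5 times. With 1 library left out, LSK CD150+CD48+ cells against pMT-10 CMPs gave log2 fold changes of -0.455 to 0.407 for Psmb8, -0.469 to 0.283 for Psmb9, -0.498 to 0.143 for Psmb10 and -0.185 to 0.352 for Psme1; the sign turned without CMP replicate 2 for all 4 and without LSK CD150+CD48+ replicate 2 for Psmb8 (0.02) and Psme1 (-0.05). In HSC against LSK CD150+CD48+ cells Psmb8 ran from -0.185 to 0.0397, turning without LSK CD150+CD48+ replicate 1, and Psmb9 was called lower with no filter (-0.84), with only the groups compared (-0.86) and without either CMP replicate (-0.81). With replicate number as a block 14 members were called in pMT-10 CMPs against BL/6 CMPs, and 4 for LSK CD150+CD48+ cells against pMT-10 CMPs. Over all tested genes same-numbered libraries did not deviate together (correlations -0.02, -0.02 and -0.08). No pairing by number showed in these correlations, but the labels do not give the animals, so they cannot settle whether one exists. The single HSC library and 2 libraries in each other group limit every comparison.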
